A study of Mus musculus with 12 samples.

Results

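The 53 genes described here encode the DNA replication machinery: 6 subunits of the origin recognition complex, 3 factors that control loading of the MCM helicase, the 6 MCM2-7 subunits, 8 factors that fire origins and complete the helicase, 6 subunits of the sliding clamp and its loader, 9 polymerase and primase subunits, 3 subunits of the single-strand binding protein RPA, 3 enzymes of Okazaki fragment maturation, 5 enzymes of deoxynucleotide supply and 4 fork protection factors. They were chosen by gene name from a list, among the 53715 genes of each table, and all 53 were found. Their levels were measured by RNA sequencing in 12 libraries, 2 in each of 6 groups. The mouse ES (mES) cells, which the study names as the wild-type line E14 and which were kept in LIF/2i medium on a layer of mouse feeder fibroblasts, made up 4 groups. These were cells given CX-5461, rapamycin or rotenone, and untreated control cells. CX-5461 blocks RNA polymerase I and with it the making of ribosomal RNA, rapamycin blocks mTOR, the kinase that couples growth to nutrients, and rotenone blocks complex I of the respiratory chain. The other two groups were C57BL/6J mouse embryos, treated with CX-5461 or left untreated. The study describes them as blastocysts and its CX-5461 treatment as given to morulae that were then cultured, while the labels give no stage. Each library held a pool of a few embryos whose cDNA was pre-amplified. By the study's methods the agents were given to mES cells for the same time but not all at the same dose, so differences between agents are differences between these treatments as given. Feeder cells were depleted before RNA extraction, by the labels. Levels are in TPM, a transcript abundance corrected for gene length and scaled to a total of 1000000 in each library, and read depth is unknown. Changes are log2 fold changes of TPM + 1 with their standard error (SE) from limma, and a gene was called at an adjusted p (Benjamini-Hochberg, over all genes tested) under 0.05. Separate cultures or litters are not given in the labels, although the study calls the experiments biologically independent, and p-values therefore measure only the spread between these libraries, which may be technical.

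In a dividing cell the origin recognition complex marks start sites on DNA, CDC6 and CDT1 load the MCM2-7 helicase there, and kinases and further factors turn it into the active CMG helicase (CDC45, MCM and GINS). Primase and polymerases then copy the strands, held on DNA by the ring-shaped clamp PCNA, while enzymes of nucleotide metabolism supply the building blocks. Many of these genes are known targets of E2F transcription factors, which switch them on as a cell enters S phase. mES cells divide fast and spend a large share of their cycle in S phase.

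Replication genes were called lower far more often than higher in CX-5461-treated and rotenone-treated mES cells, and none was called with rapamycin. With CX-5461, 21 of 53 were called lower and 1, the primase subunit gene Prim2, was called higher, against 11.0% lower and 42.0% higher over all 17638 genes tested. Rotenone gave 27 lower and 3 higher (Orc4, Cdc7 and Dbf4), against 9.57% lower and 30.6% higher over all genes. Rapamycin gave 0 lower and 0 higher by limma (0 at an unadjusted p under 0.05), in a comparison that called 0.0113% of all genes lower and 0% higher. In CX-5461-treated embryos 0 were called lower and 0 higher (4 at an unadjusted p under 0.05, all lower), against 0% lower and 0.00753% higher over the 13289 genes tested there. The 53 genes together made up 6462 and 6573 TPM with CX-5461, 8029 and 7953 TPM with rapamycin, and 6410 and 6079 TPM with rotenone, against 7793 and 8412 TPM in control mES cells. The sum was 3800 and 4954 TPM in CX-5461-treated embryos and 5301 and 5383 TPM in control embryos. Every treated library with CX-5461 or rotenone thus lay below both of its control libraries. For embryos this rests on the rescaling of control 1, whose deposited total was 639063 TPM for an unstated reason. The embryo levels, overlaps and changes given below use the rescaled values.

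The replication genes moved against the rest of the transcriptome, whose median lay above 0. The median change of the 53 genes was -0.26 with CX-5461, against 0.425 for all genes tested, and 52 of 53 lay below that median, Orc4 being the exception. With rotenone the medians were -0.31 for the replication genes and 0.27 for all genes, and 46 of 53 lay below. Rapamycin gave 0.02 for the replication genes and 0.13 for all genes. In embryos the median was -0.23 for the replication genes, 40 of them below 0, and 0.05 for all genes. The choice of scale sets how many replication genes count as lower: after median-ratio scaling, which brings the median of all genes to 0.01, 45 were called lower and 0 higher with CX-5461, against 25.1% lower and 26.3% higher over all genes. With rotenone the same scaling called 40 lower and 0 higher, against 19.7% lower and 19.6% higher over all genes. So the falls below 0 hold on the TPM scale and are smaller than the falls relative to other genes.

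**Figure D1:**
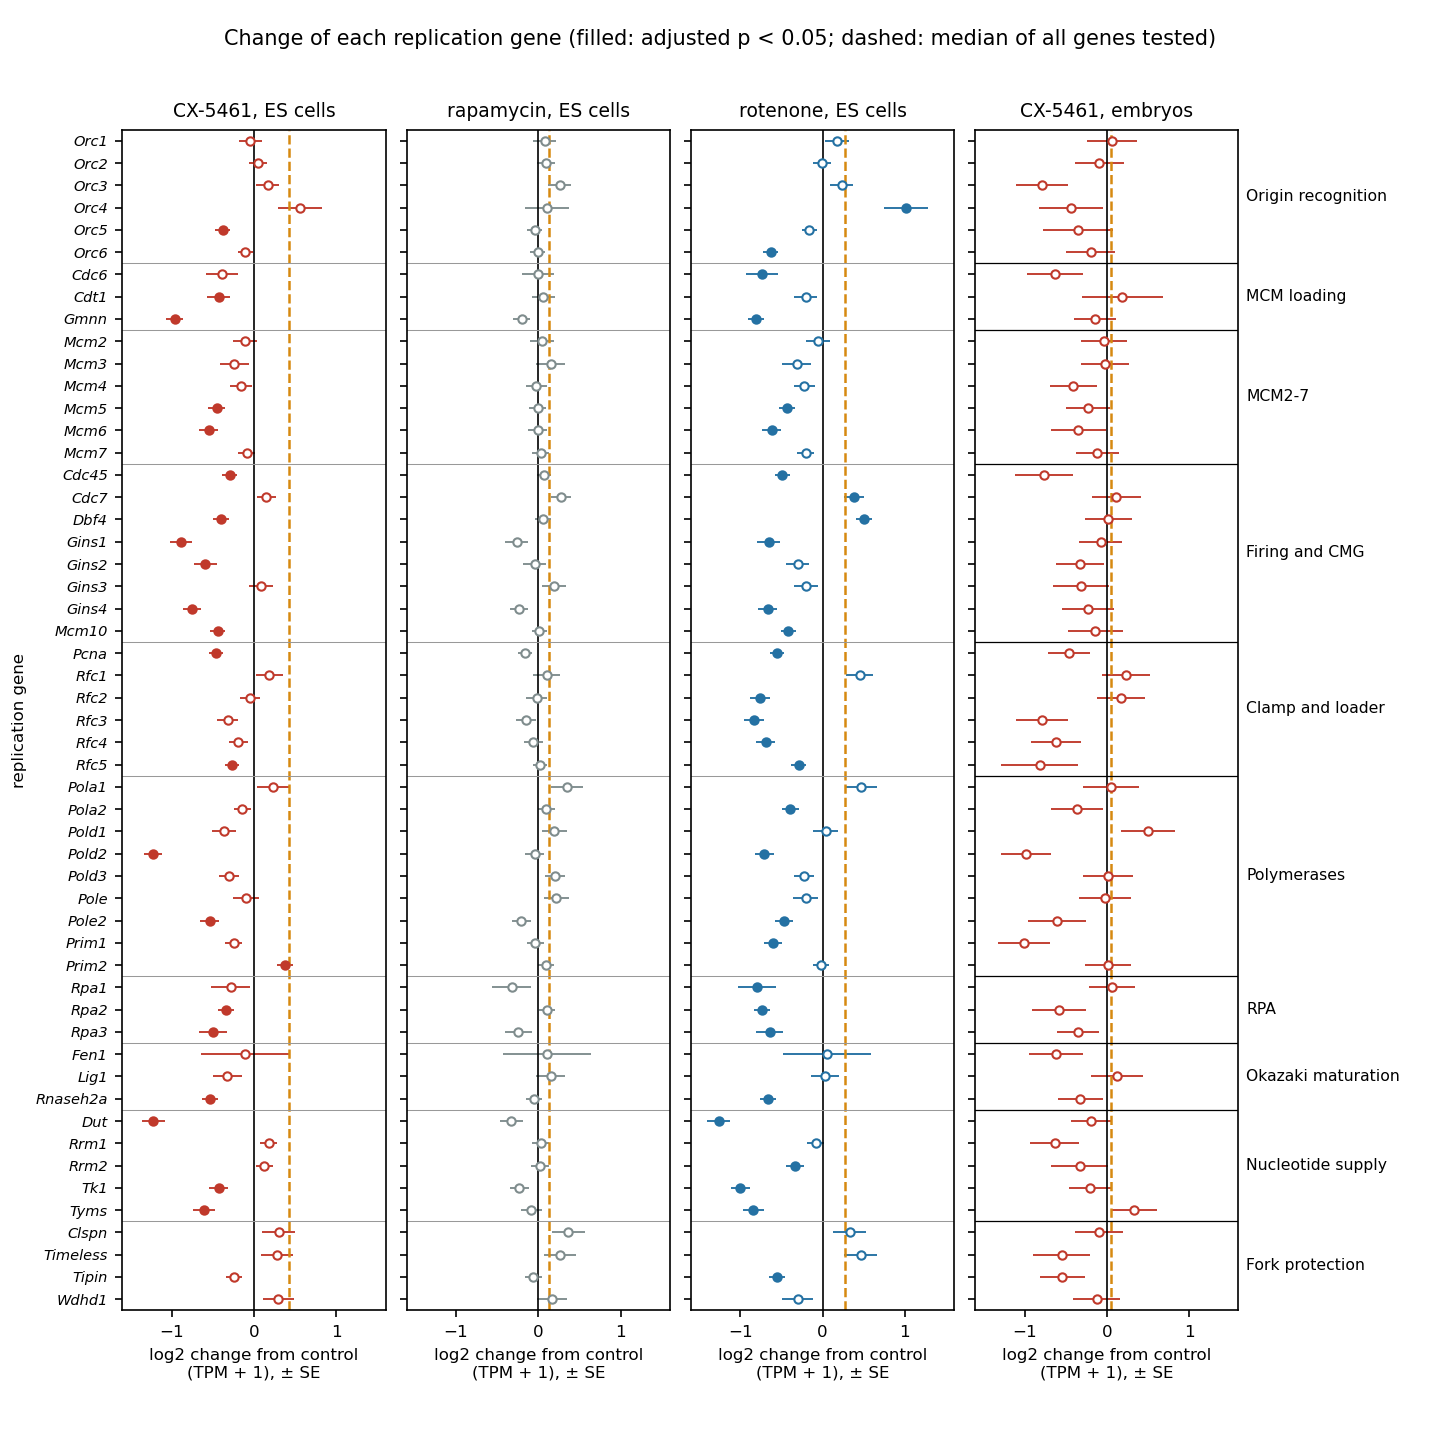
Change of each of the 53 replication genes from control (log2 of TPM + 1, x axis) with its SE, in 4 panels for CX-5461, rapamycin and rotenone in mES cells and CX-5461 in embryos, 2 libraries per group. Filled points were called (adjusted p under 0.05) and the dashed line is the median of all genes tested, 0.425 with CX-5461 in mES cells, where 52 of 53 points lie to its left.

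Without regard to a test, both libraries lay below both control libraries for 31 of the 53 genes with CX-5461 and for 33 with rotenone, against 19.4% and 21.8% of all genes tested. Both lay above for 6 genes with CX-5461 and 8 with rotenone, against 57.4% and 51.4% of all genes. With rapamycin 7 genes lay below and 7 above, against 11.4% and 29.5% of all genes, and for 39 the groups overlapped. Embryos had 21 genes below and 3 above, against 19.2% and 27.6% of all genes. Of these 21, 16 also lay below with CX-5461 in mES cells, where 31 of the 53 did. The same count over all genes was not made.

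Markers of several cell types moved with the same treatments. All 25 fibroblast markers tested, among them Col1a1, Col3a1 and Fn1, were called higher in mES cells with CX-5461 and with rotenone. Their summed level was 7095 and 7568 TPM with CX-5461, 3813 and 3266 TPM with rapamycin, and 6461 and 6888 TPM with rotenone, against 1962 and 2414 TPM in control cells, with 0 of the 25 at 0 in any of these libraries. The 10 ES cell markers, among them Pou5f1 and Nanog, moved in both directions: 5 were called lower and 1 higher (Klf4) with CX-5461, and 3 lower and 2 higher (Esrrb and Tfcp2l1) with rotenone. They summed to 4933 and 5040 TPM with CX-5461, 7342 and 7546 TPM with rapamycin, and 6300 and 6352 TPM with rotenone, against 7315 and 7469 TPM in control cells. Primitive endoderm markers were called higher for 6 of 8 tested with CX-5461 and with rotenone, summing to 132.9 and 144.9 TPM with CX-5461 and 127.0 and 127.1 TPM with rotenone, against 28.9 and 50.9 TPM in control cells. Most of the treated sums came from Col4a1 alone. It had 72.8 and 78.3 TPM with CX-5461 and 64.3 and 66.7 TPM with rotenone, against 5.85 and 18.7 TPM in control cells. Trophectoderm markers were called higher for 5 of 9 tested and lower for 1 with CX-5461, and higher for 3 of 9 with rotenone. Their levels were low, with medians of 2.8 and 3.34 TPM in control cells. Over all genes tested, 42.0% were called higher and 11.0% lower with CX-5461, and 30.6% and 9.57% with rotenone. The trophectoderm share called higher with rotenone, 33.3%, was thus near that of all genes. The part of these shifts in the results below was not tested, and in bulk RNA fewer cells of a type and less RNA per cell cannot be told apart. In embryos the fibroblast markers summed to 69.5 and 60.2 TPM with CX-5461 and 67.8 and 43.5 TPM in controls, with 11 to 14 of the 25 at 0, so these markers were near absent there. The 10 ES cell markers moved in both directions in CX-5461-treated embryos, 6 below 0 and 4 above, with a median change of -0.37. None was called, and 3 were lower at an unadjusted p under 0.05 (Nanog, Zfp42 and Tdgf1). Tdgf1 had 14.1 and 23.8 TPM in CX-5461-treated embryos and 113.8 and 95.7 TPM in control embryos. The 10 summed to 9407 and 7623 TPM with CX-5461 and 7664 and 6883 TPM in controls. Most of these sums came from Dppa5a, at 9015 and 7128 TPM with CX-5461 and 6918 and 6151 TPM in controls. Trophectoderm and primitive endoderm markers had median changes of -0.08 and -0.21 in embryos, with 0 called.

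Among the origin recognition genes, which encode the complex that marks replication origins, 1 of 6 was called lower with CX-5461 (Orc5) and 1 with rotenone (Orc6). Orc4 was called higher with rotenone. Each is 16.7% of the role, near the 11.0% and 9.57% of all genes called lower and below the 30.6% called higher with rotenone. Orc4 (chr2:48902824-48950277, all gene positions being in GRCm38) had 32.1 and 49.5 TPM with CX-5461, 23.2 and 35.8 TPM with rapamycin, and 51.8 and 58.4 TPM with rotenone, against 29.7 and 24.1 TPM in control cells. Its 2 rotenone libraries were higher than every other mES library, and with CX-5461 its libraries were far apart. The change was 1.01 (SE 0.27, adjusted p = 0.0234) with rotenone and 0.56 (SE 0.27, adjusted p = 0.116) with CX-5461. The rotenone call was kept in 5 of 9 alternative fits, that with a log2 fold minimum of 1 not counted. Median-ratio and quantile scaling were among the fits that lost it. It was also lost without control replicate 2 or either rotenone library. Orc5 had 64.4 and 66.0 TPM with CX-5461 against 84.7 and 85.6 TPM in control cells, a change of -0.38 (SE 0.09, adjusted p = 0.0116). Orc6 had 134.0 and 125.7 TPM with rotenone against 206.0 and 197.5 TPM in control cells, a change of -0.63 (SE 0.09, adjusted p = 0.00324). With CX-5461 it had 188.9 and 186.1 TPM, so the treated groups did not overlap. Orc1, Orc2 and Orc3 were not called in any comparison, with changes between -0.04 and 0.17 for CX-5461 and between -0.01 and 0.23 for rotenone.

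The loading factors were led by Gmnn, which encodes geminin, the inhibitor that binds CDT1 and blocks a second round of MCM loading. Gmnn (chr13:24751845-24761923) had 114.0 and 111.9 TPM with CX-5461, 180.2 and 205.0 TPM with rapamycin, and 132.1 and 120.5 TPM with rotenone, against 227.1 and 216.0 TPM in control cells. The 2 CX-5461 libraries were about alike and stood lowest, followed by rotenone, and no treated library reached the controls. The change was -0.97 (SE 0.10, adjusted p = 0.000381) with CX-5461 and -0.81 (SE 0.10, adjusted p = 0.002) with rotenone. Cdt1, the loader that geminin binds, had 96.9 and 88.9 TPM with CX-5461 against 109.6 and 143.1 TPM in control cells, a change of -0.43 (SE 0.14, adjusted p = 0.0372) that was lost when any of 5 libraries was left out. Cdc6, the second loader, was called lower with rotenone only, at 28.9 and 25.3 TPM against 39.2 and 53.2 TPM in control cells (change -0.74, SE 0.20, adjusted p = 0.0244), and had 30.3 and 39.8 TPM with CX-5461. The difference between CX-5461 and rotenone did not pass the test for Cdc6 (adjusted p = 0.254).

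The MCM2-7 genes, which encode the ring-shaped replicative helicase, lay between 215.2 and 504.3 TPM in the control mES libraries. Only Mcm5 and Mcm6 were called, both lower, with CX-5461 and with rotenone alike. Mcm6 (chr1:128331590-128359664) had 204.4 and 203.3 TPM with CX-5461, 321.8 and 275.5 TPM with rapamycin, and 200.1 and 188.6 TPM with rotenone, against 274.0 and 326.3 TPM in control cells. Both CX-5461 and both rotenone libraries lay below all rapamycin and control libraries. The change was -0.55 (SE 0.12, adjusted p = 0.00742) with CX-5461 and -0.62 (SE 0.12, adjusted p = 0.00812) with rotenone. Mcm5 had 326.3 and 330.7 TPM with CX-5461 and 340.2 and 326.9 TPM with rotenone, against 414.8 and 489.4 TPM in control cells, with changes of -0.45 (SE 0.10, adjusted p = 0.00888) and -0.43 (SE 0.10, adjusted p = 0.0164). The other 4 genes of the ring (Mcm2, Mcm3, Mcm4 and Mcm7) had changes between -0.24 and -0.09 with CX-5461 and between -0.31 and -0.06 with rotenone and were not called. Control libraries differed by more than these changes in Mcm3, at 340.0 and 504.3 TPM.

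The promoters of these 2 called genes are shown because they hold E2F words. Promoters from RefSeq (GRCm38.p6, from 250 bases before to 50 bases after the gene's start) were found for 44 of the 53 genes, 9 having none in the table used. They were searched on both strands for the 4 words TTTCCCGC, TTTCGCGC, TTTGCCGC and TTTGGCGC, which can overlap each other. At least 1 word stood in 16 of 44 (36.4%), against 2.6% of the 27025 genes with a promoter. Mcm6 is the member with the largest called fall with CX-5461 whose promoter holds a word, and Mcm5 was added after the values were seen. The 170 bases upstream of the start are printed in the direction of the gene, with the words in capitals. The Mcm6 stretch lies at chr1:128359706-128359875 on the minus strand and holds 3 words, starting 110, 106 and 47 bases before the start, the first pair overlapping. The Mcm5 stretch lies at chr8:75109339-75109508 on the plus strand and holds 2 overlapping words, starting 153 and 149 bases before the start.
Mcm6: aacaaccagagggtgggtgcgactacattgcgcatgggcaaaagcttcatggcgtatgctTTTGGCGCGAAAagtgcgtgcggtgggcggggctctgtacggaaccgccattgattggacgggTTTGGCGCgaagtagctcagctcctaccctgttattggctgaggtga
Mcm5: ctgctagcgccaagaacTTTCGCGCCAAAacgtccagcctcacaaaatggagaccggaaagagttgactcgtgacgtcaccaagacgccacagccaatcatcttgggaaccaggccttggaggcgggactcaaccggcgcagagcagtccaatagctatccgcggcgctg
Of the genes with a promoter in the table, 4 of 17 called lower with CX-5461 held a word, as did 12 of 27 not called. By role they stood in 4 of 5 MCM2-7 genes and 4 of 7 polymerase genes, and in 0 of 5 nucleotide supply and 0 of 3 RPA genes. A word match is a description of the letters, not of a bound site.

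Of the factors that fire origins, 6 of 8 were called lower with CX-5461 (Mcm10, Cdc45, Gins1, Gins2, Gins4 and Dbf4), against 11.0% of all genes. The CX-5461 call of Cdc45 was kept in 3 of 8 fits without a library, that of Dbf4 in 6 and that of Gins2 in 7. With rotenone 4 of 8 were lower and 2 higher, against 9.57% and 30.6% of all genes. Gins1 (chr2:150905400-150931280), a subunit of the GINS complex of the active helicase, had 86.7 and 84.7 TPM with CX-5461, 128.1 and 137.1 TPM with rapamycin, and 107.5 and 94.4 TPM with rotenone, against 181.2 and 140.2 TPM in control cells. Every treated library was below both controls, and CX-5461 was lowest. The change was -0.89 (SE 0.14, adjusted p = 0.002) with CX-5461 and -0.66 (SE 0.14, adjusted p = 0.0115) with rotenone. Gins4 fell by 0.75 and Gins2 by 0.59 with CX-5461, while Gins3 was not called (0.08, SE 0.14). Cdc45, the third component of CMG, had 92.0 and 90.8 TPM with CX-5461 and 81.3 and 78.3 TPM with rotenone, against 107.8 and 117.1 TPM in control cells. Mcm10, which is needed to activate the helicase, changed by -0.44 with CX-5461 and by -0.41 with rotenone, both called.

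Cdc7 and its regulatory subunit Dbf4 form the kinase that phosphorylates MCM to fire an origin, and Dbf4 was the only gene of the 53 called in opposite directions by the 2 treatments. Dbf4 (chr5:8396973-8422716) had 103.7 and 106.4 TPM with CX-5461, 148.6 and 140.6 TPM with rapamycin, and 200.6 and 195.0 TPM with rotenone, against 130.2 and 149.1 TPM in control cells. CX-5461 libraries were lowest and rotenone libraries highest, with control and rapamycin between them. The change was -0.40 (SE 0.10, adjusted p = 0.0118) with CX-5461 and 0.50 (SE 0.10, adjusted p = 0.00859) with rotenone. The rotenone change was -0.15 after removal of the exon length trend and short of a call after median-ratio scaling (0.17), and its call was lost when either rotenone library was left out. The direct difference, CX-5461 minus rotenone, was -0.91 (SE 0.10, adjusted p = 0.00139), and it was called in every alternative fit other than that with a log2 fold minimum of 1. Cdc7, the catalytic subunit, had 26.4 and 26.3 TPM with CX-5461, 29.8 and 27.8 TPM with rapamycin, and 32.2 and 30.1 TPM with rotenone, against 22.1 and 25.3 TPM in control cells. Its rotenone libraries were the highest of the mES libraries. The change with rotenone was 0.38 (SE 0.12, adjusted p = 0.0422), a call lost in 7 of 8 fits without a library and at 0.06 and 0.00 after median-ratio and quantile scaling.

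Pcna, which encodes the sliding clamp that holds polymerases on DNA, was the most abundant replication gene in control mES cells. Pcna (chr2:132249162-132253314) had 445.3 and 468.9 TPM with CX-5461, 542.9 and 587.7 TPM with rapamycin, and 439.2 and 415.7 TPM with rotenone, against 606.2 and 654.2 TPM in control cells. No treated library reached a control library, and the CX-5461 libraries lay just above the rotenone libraries. The change was -0.46 (SE 0.08, adjusted p = 0.00387) with CX-5461 and -0.56 (SE 0.08, adjusted p = 0.00385) with rotenone. The value is uncertain, because a pseudogene of it, Pcna-ps2, was listed at 130.0 and 113 TPM with CX-5461, 159 and 198 TPM with rapamycin, and 108 and 108 TPM with rotenone, against 263 and 203 TPM in control cells, and reads can be split between such copies.

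Of the 5 clamp loader genes, whose products open the clamp and load it on DNA, Rfc2, Rfc3, Rfc4 and Rfc5 were called lower with rotenone and Rfc5 alone with CX-5461. Rfc3 had 83.8 and 82.2 TPM with CX-5461 and 55.9 and 59.7 TPM with rotenone, against 114.5 and 94.2 TPM in control cells. Rfc2 had 55.5 and 61.6 TPM with CX-5461 and 35.3 and 35.5 TPM with rotenone, against 55.6 and 66.0 TPM in control cells. Rotenone libraries lay below CX-5461 libraries in both genes, and for Rfc2 the CX-5461 and control groups overlapped. CX-5461 minus rotenone was 0.71 (SE 0.12, adjusted p = 0.00787) for Rfc2, 0.52 (SE 0.12, adjusted p = 0.0265) for Rfc3 and 0.50 (SE 0.12, adjusted p = 0.0228) for Rfc4, while Rfc1 and Rfc5 did not pass that test. The call was kept in 5 of 8 fits without a library for Rfc2 and in 4 of 8 for Rfc3 and Rfc4. Rfc5 was the least certain, at -0.26 with CX-5461 and -0.29 with rotenone, and both calls were lost whichever library was left out. Rfc1, the large subunit, had 79.4 and 68.6 TPM with rotenone against 49.7 and 57.8 TPM in control cells, short of a call (0.45, SE 0.16, adjusted p = 0.0625).

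Of the polymerase genes, Pold2 had the largest fall with CX-5461, of about the same size as that of Dut among all 53. It encodes an accessory subunit of polymerase delta, the main lagging strand polymerase. Pold2 (chr11:5872180-5878292) had 68.5 and 66.0 TPM with CX-5461, 147.4 and 160.8 TPM with rapamycin, and 99.04 and 94.9 TPM with rotenone, against 173.5 and 145.4 TPM in control cells. The CX-5461 libraries stood below the rotenone libraries, which stood below the rest. The change was -1.23 (SE 0.11, adjusted p = 0.000235) with CX-5461 and -0.71 (SE 0.11, adjusted p = 0.0045) with rotenone, and CX-5461 minus rotenone was -0.52 (SE 0.11, adjusted p = 0.018). The catalytic subunit gene Pold1 had 67.8 and 72.0 TPM with CX-5461 and 95.6 and 89.9 TPM with rotenone, against 80.0 and 101.8 TPM in control cells, and was not called (CX-5461 change -0.36, SE 0.15, adjusted p = 0.0754). Pole2, an accessory subunit of polymerase epsilon, the leading strand polymerase, fell by 0.54 with CX-5461 and by 0.47 with rotenone, both called, and the catalytic gene Pole was not called.

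Primase makes the RNA primers that polymerase alpha extends, and its 2 subunit genes gave different calls. Prim2 (chr1:33453810-33669795) had 74.4 and 73.8 TPM with CX-5461, 60.4 and 61.4 TPM with rapamycin, and 57.2 and 55.3 TPM with rotenone, against 54.0 and 59.9 TPM in control cells. Only the CX-5461 libraries stood apart from the rest. The change with CX-5461 was 0.38 (SE 0.10, adjusted p = 0.0167), just below the median of all genes, and it was -0.10 after median-ratio scaling and -0.21 after removal of the exon length trend. Prim1 had 107.1 and 100.5 TPM with CX-5461 and 81.4 and 80.0 TPM with rotenone, against 132.3 and 114.5 TPM in control cells, called lower with rotenone only (-0.60, SE 0.11, adjusted p = 0.006), and CX-5461 minus rotenone was short of a call (0.36, SE 0.11, adjusted p = 0.0502). The catalytic gene Pola1 of polymerase alpha was not called with either treatment, and Pola2, its accessory subunit gene, was called lower with rotenone (-0.39).

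The 3 RPA genes, which encode the protein that coats single-stranded DNA at the fork, were all called lower with rotenone, and Rpa2 and Rpa3 also with CX-5461. Rpa3 (chr6:8255936-8259173) had 104.1 and 94.9 TPM with CX-5461, 101.7 and 139.9 TPM with rapamycin, and 90.6 and 89.4 TPM with rotenone, against 155.7 and 127.9 TPM in control cells. The CX-5461 and rotenone libraries lay below both controls and one rapamycin library lay among them. The change was -0.50 (SE 0.17, adjusted p = 0.0406) with CX-5461, a call lost in 5 of 8 fits without a library, and -0.64 (SE 0.17, adjusted p = 0.0232) with rotenone. Rpa2 had 138.1 and 139.0 TPM with CX-5461 and 103.6 and 107.5 TPM with rotenone, against 164.8 and 187.9 TPM in control cells, and CX-5461 minus rotenone was 0.39 (SE 0.10, adjusted p = 0.0297).

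Of the genes that finish Okazaki fragments, only Rnaseh2a, the catalytic subunit of the nuclease that cuts RNA from DNA, was called. Rnaseh2a (chr8:84956610-84969767) had 69.5 and 65.0 TPM with CX-5461, 96.2 and 92.8 TPM with rapamycin, and 64.5 and 58.6 TPM with rotenone, against 101.1 and 95.2 TPM in control cells. CX-5461 and rotenone libraries lay well below the controls, while rapamycin overlapped them. The change was -0.54 (SE 0.10, adjusted p = 0.00406) with CX-5461 and -0.67 (SE 0.10, adjusted p = 0.00375) with rotenone. Lig1, the ligase that seals fragments, was not called. Fen1, the flap nuclease, had 49.5 and 117.1 TPM with CX-5461, 62.4 and 126.3 TPM with rapamycin, and 85.5 and 85.8 TPM with rotenone, against 124.0 and 54.5 TPM in control cells. The 2 libraries differed widely in every group but rotenone, the groups overlapped, and 84.2% of its exon bases are shared with other genes in the annotation, so its value is uncertain.

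Of the 5 enzymes of deoxynucleotide supply, Dut, Tyms and Tk1 were called lower with CX-5461 and with rotenone, Rrm2 with rotenone alone and Rrm1 with neither. Dut, the dUTPase that keeps uracil out of DNA, had 135.2 and 121.7 TPM with CX-5461, 212.7 and 269.8 TPM with rapamycin, and 122.0 and 127.9 TPM with rotenone, against 327.0 and 277.2 TPM in control cells (chr2:125247190-125258608). Its CX-5461 and rotenone libraries overlapped each other and lay far below every rapamycin and control library. The change was -1.22 (SE 0.14, adjusted p = 0.00057) with CX-5461 and -1.26 (SE 0.14, adjusted p = 0.0015) with rotenone, the largest fall with rotenone among the 53. Tyms (chr5:30058202-30073617), thymidylate synthase, had 58.8 and 61.7 TPM with CX-5461, 81.7 and 92.9 TPM with rapamycin, and 53.2 and 49.3 TPM with rotenone, against 102.3 and 83.5 TPM in control cells. The change was -0.61 (SE 0.13, adjusted p = 0.00745) with CX-5461 and -0.84 (SE 0.13, adjusted p = 0.00417) with rotenone.

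Tk1, the thymidine kinase that salvages thymidine in S phase, had 92.7 and 91.7 TPM with CX-5461, 105.2 and 106.9 TPM with rapamycin, and 65.2 and 58.8 TPM with rotenone, against 113.9 and 136.5 TPM in control cells (chr11:117815526-117826092). All treated libraries were below the controls, and the rotenone libraries were lowest. The change was -0.43 (SE 0.12, adjusted p = 0.0179) with CX-5461 and -0.998 (SE 0.12, adjusted p = 0.0016) with rotenone, and CX-5461 minus rotenone was 0.57 (SE 0.12, adjusted p = 0.0143). The remaining pair encodes ribonucleotide reductase, which makes deoxynucleotides. Rrm1, its large subunit, had 160.8 and 168.3 TPM with CX-5461, 151.1 and 145.4 TPM with rapamycin, and 141.9 and 132.2 TPM with rotenone, against 134.6 and 156.4 TPM in control cells (CX-5461 change 0.18, SE 0.10, adjusted p = 0.179). Rrm2, its small subunit, had 339.4 and 336.1 TPM with CX-5461 and 257.3 and 234.0 TPM with rotenone, against 282.2 and 338.8 TPM in control cells, and was called lower with rotenone only (-0.33, SE 0.11, adjusted p = 0.0443), a call lost in 7 of 8 fits without a library.

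The fork protection genes, which stabilise the moving fork and pass on stress signals, had no call with CX-5461. Clspn (chr4:126556935-126593903), the checkpoint adaptor claspin, had 25.4 and 28.7 TPM with CX-5461, 33.0 and 24.2 TPM with rapamycin, and 29.9 and 25.3 TPM with rotenone, against 19.0 and 24.8 TPM in control cells, and its change with CX-5461 was 0.30 (SE 0.20, adjusted p = 0.24). The CX-5461 libraries lay just above the controls, and the rapamycin group overlapped them. Timeless and Wdhd1 had changes of 0.28 and 0.30 with CX-5461, also not called. Tipin, the partner of Timeless, was called lower with rotenone (-0.55, SE 0.10, adjusted p = 0.00724), at 212.3 and 206.3 TPM against 316.1 and 299.3 TPM in control cells, and had 260.5 and 259.2 TPM with CX-5461.

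**Figure D2:**
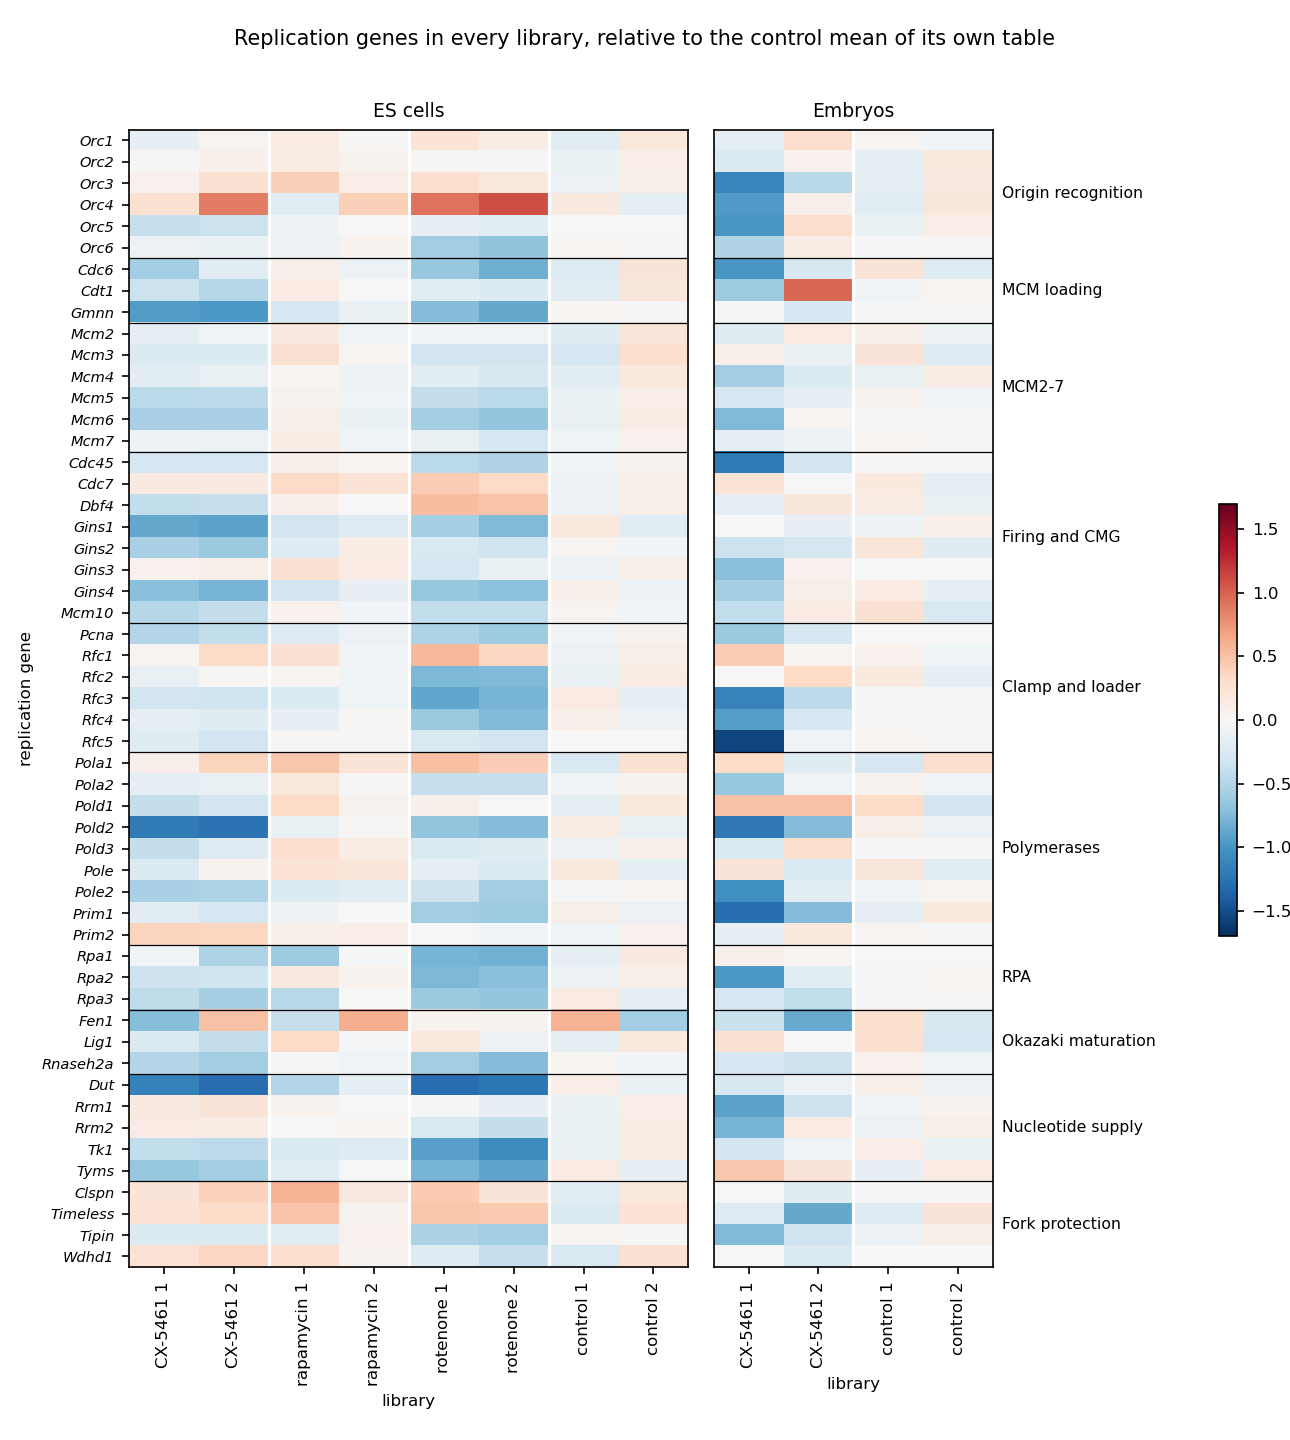
Level of each replication gene in every library as log2(TPM + 1) minus the mean of the 2 control libraries of its own table (colour), with mES libraries on the left and embryo libraries on the right. Blue cells are lower than control: the CX-5461 and rotenone columns of mES cells are mostly blue, with Dbf4 and Orc4 red under rotenone, and embryo CX-5461 library 1 is bluer than library 2.

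The calls with CX-5461 and with rotenone rest on the same control libraries, so the lists cannot be compared as independent. Side by side, 17 genes were called lower in both, 4 with CX-5461 alone (Orc5, Cdt1, Gins2 and, opposite with rotenone, Dbf4) and 10 with rotenone alone. The share of all genes called lower in both was not counted, so the 17 are given as a description. The direct comparison, CX-5461 against rotenone, called 8 genes higher with CX-5461 than with rotenone (Orc6, Rfc2, Rfc3, Rfc4, Prim2, Rpa2, Rrm2 and Tk1) and 2 lower (Dbf4 and Pold2), against 17.2% higher and 4.93% lower over all genes. These shares, 15.1% and 3.77%, are near those of all genes. Only the Dbf4 difference was kept in every fit without a library, and without either library of CX-5461 or rotenone the 8 higher calls came to 0 or 1.

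Leaving out a library changed the counts but not the direction of the strongest falls. Without either CX-5461 library fewer replication genes were called lower with CX-5461, with the lone library assumed to vary like the other groups. The share of all genes called in the same fits is not set beside this, so it is no result about the replication genes apart from other genes. Fewer were also called lower with rotenone when rotenone replicate 2 was left out. The 11 genes Gmnn, Mcm6, Mcm10, Gins1, Gins4, Pcna, Pold2, Pole2, Rnaseh2a, Tyms and Dut stayed called lower with CX-5461 in every such fit and in all alternatives except a log2 fold minimum of 1, which Pold2 and Dut alone passed. For rotenone 14 genes did so, among them Orc6, Rfc2, Rfc3, Rfc4, Rpa2 and Tk1. No called rise of the 53 was kept in all of these fits.

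**Figure D3:**
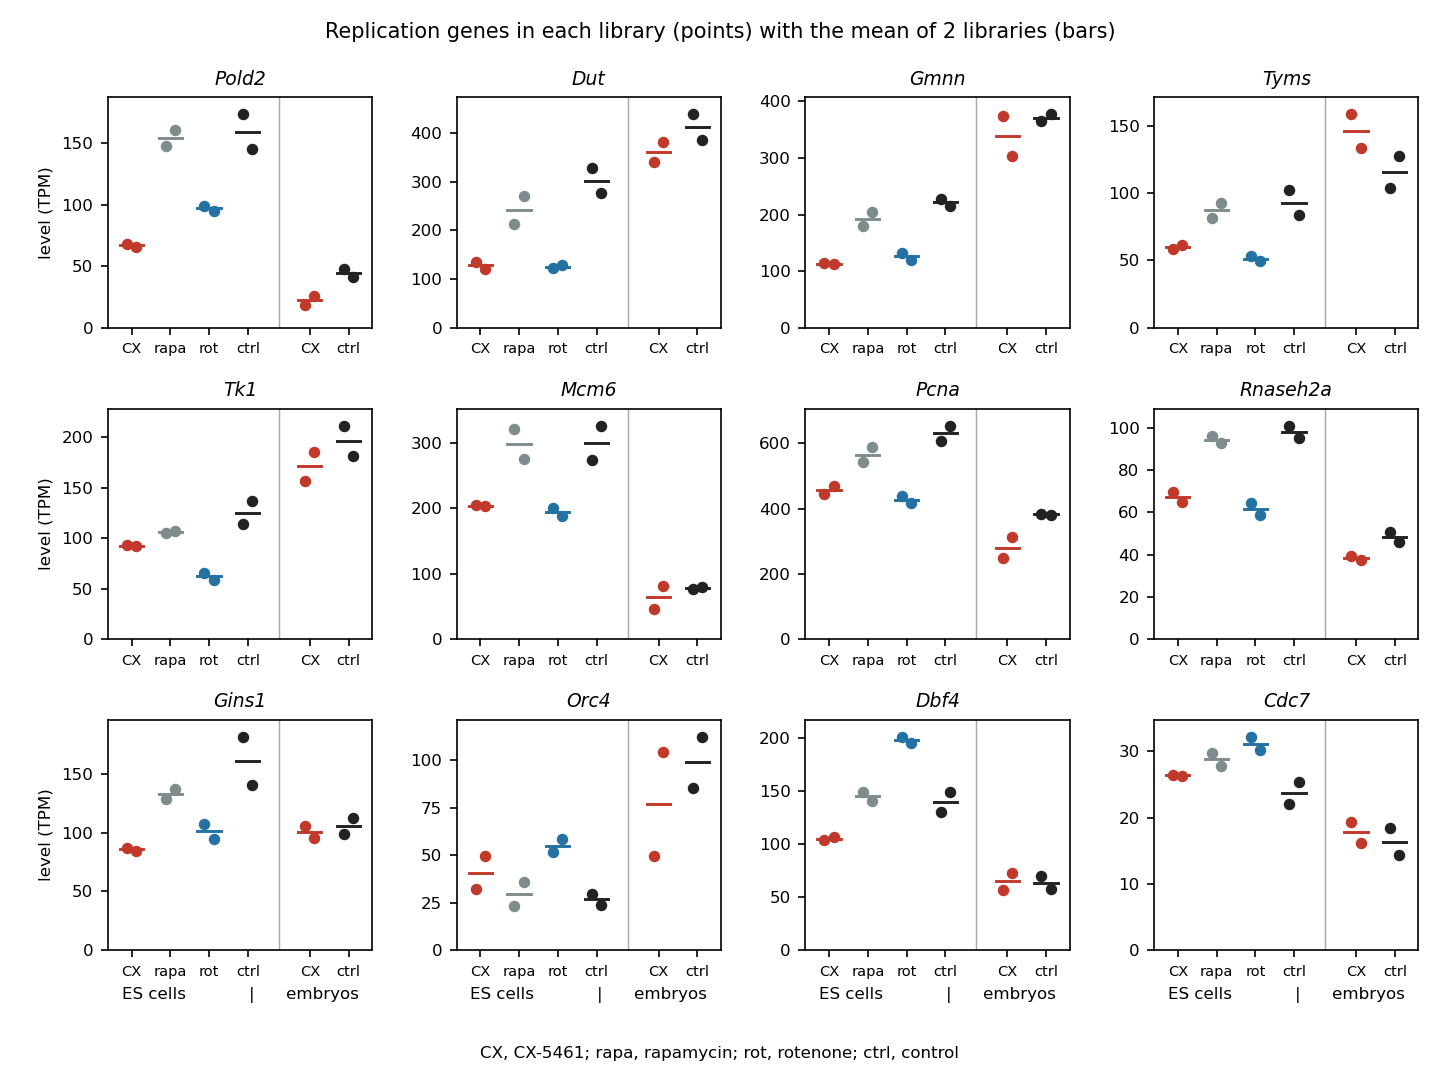
Level in TPM (y axis from 0) of 12 replication genes in each library, points being libraries and bars the mean of 2, with mES groups left of the vertical line and embryo groups right of it. In mES cells Pold2, Dut and Gmnn are lower with CX-5461 and rotenone than with rapamycin or in controls. In the same cells Tk1 is lowest with rotenone, and Dbf4 runs opposite ways with CX-5461 and rotenone.

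In CX-5461-treated embryos no replication gene was called, and the values leaned downward in 1 of 2 libraries more than in the other. The median deviation of the 53 genes from the control mean was -0.32 in CX-5461 library 1 and -0.11 in library 2. Prim1 had 27.3 and 40.5 TPM in CX-5461-treated embryos and 60.4 and 76.3 TPM in control embryos, a change of -1.01 (SE 0.31, adjusted p = 0.296). Pold2 had 18.6 and 26.2 TPM in CX-5461-treated embryos and 48.0 and 41.4 TPM in control embryos, a change of -0.98 (SE 0.30, adjusted p = 0.296). Both genes had all treated libraries below all controls, as did Orc3 and Rfc3, the other members at an unadjusted p under 0.05. Rfc5, at 24.9 and 71.8 TPM in CX-5461-treated embryos and 77.5 and 73.5 TPM in control embryos, shows how far the treated libraries differed. Without CX-5461 library 2 the fit called 17 of the 53 lower, against 12.5% of all genes, and without library 1 it called 0.

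Some of the strongest mES falls were small in embryos. Gmnn had 375.2 and 303.0 TPM in CX-5461-treated embryos and 365.9 and 377.4 TPM in control embryos, and Dut had 340.6 and 381.9 TPM in CX-5461-treated embryos and 438.3 and 385.0 TPM in control embryos. Their groups overlapped for Gmnn and not for Dut, with changes of -0.14 (SE 0.26) and -0.19 (SE 0.25). In 3 genes the direction was opposite in mES cells and embryos, with no overlap of groups in either. The share of all genes with such opposite values was not counted. Tyms had 158.4 and 133.4 TPM in CX-5461-treated embryos and 103.8 and 127.2 TPM in control embryos (change 0.34, SE 0.27, adjusted p = 0.613). Rrm1 had 67.7 and 100.7 TPM in CX-5461-treated embryos and 123.5 and 133.6 TPM in control embryos (change -0.63, SE 0.30, adjusted p = 0.435). Its rise in mES cells lay below the median of all genes and changed sign after median-ratio scaling and after removal of the exon length trend. Pold1, at a low level, had 6.83 and 6.87 TPM in CX-5461-treated embryos and 5.91 and 3.47 TPM in control embryos (change 0.50, SE 0.33, adjusted p = 0.545). None of these passed the test in embryos, and the 2 tables were not tested against each other.

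The order of levels differed between the untreated systems, whose tables were normalised separately. In control mES cells the highest were Pcna (630.2 ± 33.9 TPM, SD, n = 2), Mcm7 (463.3 ± 34.8), Mcm5 (452.1 ± 52.8) and Mcm3 (422.1 ± 116.0), and the last 3 did not differ beyond their spread. In control embryos the highest were Rrm2 (588.8 ± 58.2 TPM, SD, n = 2), Dut (411.6 ± 37.7), Tipin (395.1 ± 41.0), Pcna (382.6 ± 2.76) and Gmnn (371.6 ± 8.13). MCM2-7 genes lay between 30.8 and 79.6 TPM in control embryos, none of them among the 11 highest. All 53 genes were above 0 in all 12 libraries.

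In mES cells the changes of the replication genes ran with exon length, and so did those of genes at large. With CX-5461 the median change of the 53 was -0.50 for the 11 genes under 2500 bases, -0.30 for the 22 genes of 2500 to 4999 bases and -0.07 for the 20 genes of 5000 bases or more. Over all genes tested the medians in the same classes were 0.16, 0.40 and 0.67. With rotenone they were -0.66, -0.29 and -0.12 for the replication genes and -0.03, 0.23 and 0.60 for all genes. Rapamycin, with no call, gave -0.16, 0.05 and 0.07 for the replication genes and 0.00493, 0.12 and 0.24 for all genes. In embryos the medians were -0.35, -0.32 and -0.11 for the replication genes, and 0.13, -0.05 and 0.06 for all genes, which showed no such order. In each class and each of these comparisons with control, the median of the replication genes was below that of all genes. Across the 53 genes Pearson's r between change and log2 exon length was 0.54 with CX-5461, 0.53 with rapamycin and 0.49 with rotenone in mES cells and 0.25 in embryos, as a description over genes that share libraries. After removal of the length trend from each library, 46 genes were called lower with CX-5461 and 41 with rotenone, and 0 were called higher in either. The same fits called 25.9% of all genes lower and 23.5% higher with CX-5461, and 17.6% lower and 15.7% higher with rotenone.

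**Figure D4:**
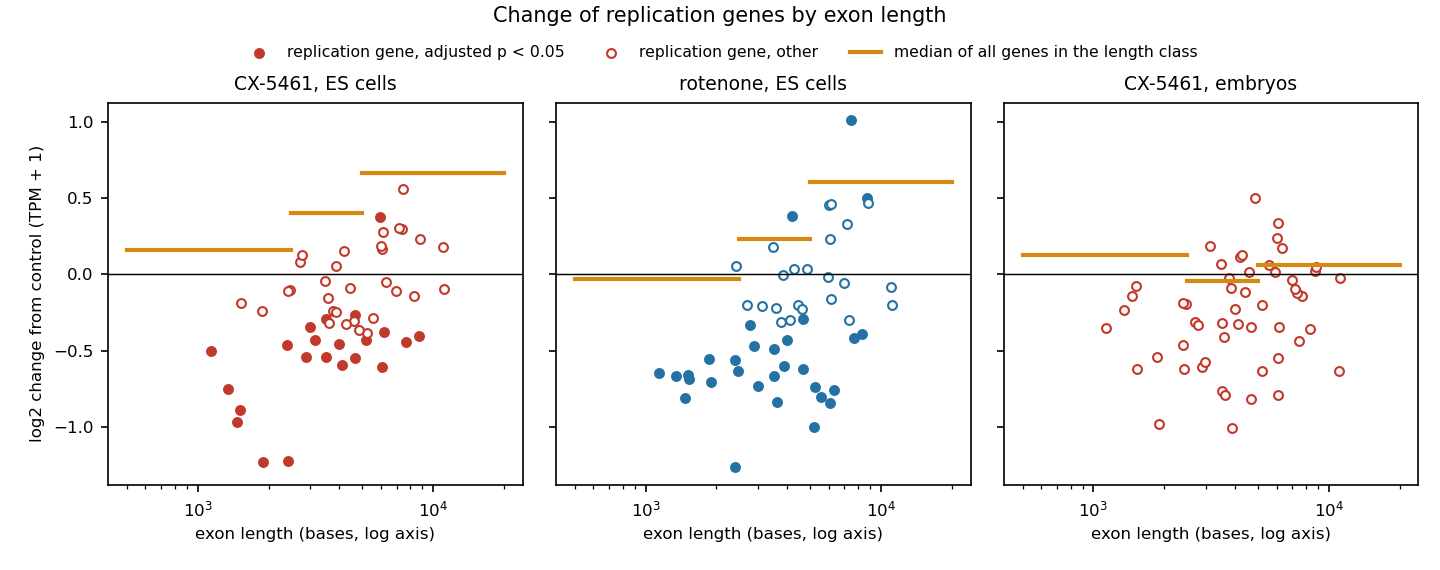
Change of each replication gene (log2 of TPM + 1, y axis) against its exon length in bases (log x axis) for CX-5461 and rotenone in mES cells and CX-5461 in embryos, filled points being called. Bars give the median of all genes in 3 length classes, 0.16, 0.40 and 0.67 with CX-5461 in mES cells, and most points lie below the bar of their class.

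Of 33 further replication genes, 7 were called lower and 1 higher with CX-5461, with a median change of -0.06, and 7 lower and 4 higher with rotenone, with a median of -0.08. These are 21.2% lower and 3.03% higher with CX-5461, against 11.0% and 42.0% of all genes, and 21.2% lower and 12.1% higher with rotenone, against 9.57% and 30.6% of all genes. The most changed with CX-5461 were Pclaf, which encodes a PCNA-binding factor (-1.40, SE 0.31, adjusted p = 0.00834), Rnaseh2b, the partner of Rnaseh2a (-1.07, SE 0.11, adjusted p = 0.000389), and Dscc1, a subunit of an alternative clamp loader (-0.77, SE 0.13, adjusted p = 0.00314). Of 14 further nucleotide supply genes, 6 were called higher and 5 lower with CX-5461, and 1 higher and 3 lower with rotenone. With CX-5461 42.9% were thus higher, near the 42.0% of all genes, and 35.7% were lower, and with rotenone 7.14% were higher and 21.4% lower. The most changed were Cad, an enzyme of pyrimidine synthesis (1.48, SE 0.36, adjusted p = 0.0119), Rrm2b, the p53-inducible small subunit of ribonucleotide reductase (1.46, SE 0.19, adjusted p = 0.000908), and the kinase gene Dck (0.76, SE 0.12, adjusted p = 0.00224).

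Of 23 regulators of the E2F and RB pathway, 5 were called higher and 2 lower with CX-5461 and 4 higher and 1 lower with rotenone, shares of 21.7% and 17.4% called higher, below those of all genes. With CX-5461 15 of the 23 lay above 0 and 8 below, down to -0.71, with a median of 0.22 against 0.425 for all genes. The most changed were all rises. Rb1, the retinoblastoma repressor of E2F, changed by 2.42 (SE 0.13, adjusted p = 4.61e-05) with CX-5461. Rbl2, its relative, changed by 1.81 (SE 0.19, adjusted p = 0.00037), and the repressive family member E2f6 by 1.22 (SE 0.30, adjusted p = 0.0138). Other E2F genes were lower: E2f5 had 31.6 and 27.9 TPM with CX-5461 against 51.7 and 46.7 TPM in control cells. E2f4 had 141.8 and 141.3 TPM against 158.7 and 189.0 TPM. None of these 3 lists had a call with rapamycin or in embryos.

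Some member values are uncertain for their reads. Of the 53 genes 20 share exon bases with another gene and 3 share more than 25%: Fen1, Gins2 (67.3%, with Gse1 on the opposite strand) and Orc2 (29.8%, with Nif3l1). Whether the counting used strand is not given in the sources used here. Gse1 itself was at 34.6 and 44.5 TPM with CX-5461 and 42.7 and 30.8 TPM with rotenone, against 5.88 and 16.9 TPM in control cells, so its direction was opposite to that of Gins2.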

How the data were processed

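The authors deposited gene levels in TPM, in a table for mES cells and a table for embryos. By their methods reads were trimmed (Trimmomatic), aligned to mm10 (HISAT2), and quantified by StringTie against GENCODE genes, from uniquely mapped reads after removal of duplicates (Picard). The labels also name CASAVA 1.8. TPM holds no counts, so depth and counting error are unknown. Each library was rescaled to 1000000 TPM, which matters only for embryo control 1 (deposited total 639063). The fits used limma 3.58.1 in R 4.3.3 (two-sided, empirical Bayes prior with an intensity trend) on log2(TPM + 1) of genes that reached 1 TPM in at least 2 libraries, with the 8 mES libraries in one fit and the 4 embryo libraries in another. The study's own test used read counts, which were not used here. Gene coordinates and exon lengths are from GENCODE M21 (GRCm38), with 53620 of 53715 IDs matched without version. The fits were checked on simulated data. Members, lists and tests were chosen with earlier results of these data known. Full statistics are given for the 3 largest called rises and falls per comparison, the most changed gene of each role with CX-5461, and genes with opposite directions in mES cells and embryos. Other genes named with values were chosen after those were seen. Alternatives covered pseudocount, filter, scaling, prior, replicate block, samples, fold minimum, exon length and left-out libraries.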

Additional observations from a re-analysis of the deposited data

Results flagged for a closer look

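In 3 replication genes the values moved opposite ways with CX-5461 in mES cells and in embryos. Every treated library lay on one side of its controls in each system. How many of all genes did so was not counted, so these 3 are not set apart from other genes. Pold1 changed by -0.36 in mES cells and by 0.50 in embryos. Rrm1 changed by 0.18 in mES cells and by -0.63 in embryos. Its mES change lay below the median of all genes, 0.425. It changed sign after median-ratio scaling and after removal of the exon length trend, so its opposite direction holds on the TPM scale only. Tyms changed by -0.61 in mES cells and by 0.34 in embryos. The difference between the systems was not tested, since the tables came from separate protocols and normalisations, and of these 6 changes only the fall of Tyms in mES cells was called.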

How the results depend on the processing

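Depth is unknown and 2 libraries per group limit precision. The count of replication genes called depended on the scale and on the fold minimum. Shares of all genes called in the same fits are given above for some of these fits only. Where they are not, a changed count cannot be read as particular to the replication genes. With CX-5461 in mES cells (21 lower, 1 higher), median-ratio scaling gave 45 lower and 0 higher, removal of the exon length trend 46 and 0, a log2 fold minimum of 1 gave 2 and 0, and quantile scaling or a fit of the groups compared gave 0 higher. With rotenone (27 lower, 3 higher), median-ratio scaling gave 0 higher, the length trend removal 41 lower and 0 higher, the fold minimum 1 and 1, and quantile scaling or no filter 1 higher. For CX-5461 against rotenone (8 higher, 2 lower), median-ratio scaling gave 3 higher and 5 lower, quantile scaling 5 lower, length trend removal 3 higher and 10 lower, the prior without trend 5 higher, the groups compared alone 13 higher, and the fold minimum 0 and 0. Left-out libraries gave 11 to 22 lower and 0 to 4 higher with CX-5461, 14 to 27 lower and 0 to 4 higher with rotenone, 0 to 10 higher and 1 to 3 lower for CX-5461 against rotenone, and 0 to 17 lower in embryos. Rapamycin stayed at 0 in all alternatives.

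Estimates changed sign for some genes. Listed here are only changes of sign where the gene was called in the main fit or in the alternative. Other changes of sign, with no call in either fit, are not listed. With CX-5461, median-ratio scaling gave Orc2 -0.43, Orc3 -0.31, Gins3 -0.37, Cdc7 -0.31, Prim2 -0.10, Rrm1 -0.30 and Rrm2 -0.36. Quantile scaling gave Gins3 -0.59 and Cdc7 -0.36. Length trend removal gave Orc2 -0.40, Orc3 -0.42, Cdc7 -0.32, Rfc1 -0.40, Pola1 -0.48, Prim2 -0.21, Rrm1 -0.59 and Wdhd1 -0.36, and with rotenone Dbf4 -0.15 and Pold1 -0.34. The cause was not tested.

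Deviations of same-numbered libraries correlated between -0.298 and 0.17 over genes, so a pairing by number was neither shown nor excluded. With the replicate number as a block, CX-5461 against rotenone gave 4 replication genes higher, and calls over all genes were 8594 against 9350 without the block for CX-5461, 5839 against 7082 for rotenone, and 92 against 1 in embryos. For rapamycin, a pairing with crossed numbers, chosen after seeing the data, called 0 genes, against 7 as numbered.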
